A study of Rattus norvegicus with 18 samples.

Results

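The IL-1 family set consisted of 10 genes of the 14217 that the array annotation names: the ligands Il1a, Il1b and Il36b, the antagonists Il1rn and Il36rn, the receptors Il1r1, Il1r2, Il1rap and Il1rl1, and Irak2, a protein of the pathway below the receptors. Every probe set annotated with 1 of these symbols was taken, 15 in all, and where a gene had several the one of highest mean log2 signal over the 18 samples stood for the gene. RNA was measured on Affymetrix rat whole-genome arrays, 1 array per sample and 3 samples in each of 6 groups. Tongue epithelia and submucosal fibroblasts were each collected from normal mucosa, dysplasia and squamous cell carcinoma (SCC) of male Sprague Dawley rats. The lesions came from rats that drank 0.002% of the carcinogen 4-nitroquinoline-1-oxide (4NQO) and were killed with visible lesions between week 14 and week 22, so that stage and time of exposure were not set apart by the design, whereas the normal controls drank distilled water only. Tissue of 3 rats was pooled per sample according to the methods. Epithelia were the layer lifted off with dispase, and fibroblasts were the cells of the digested connective tissue that adhered to a dish within a short culture. All levels below are log2 of the deposited probe set signals, a change is a difference of mean log2 signals, and a change counted as called when its limma p adjusted over 31042 probe sets was under 0.05. Levels of different genes come from different probes and were not set against each other.

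IL-1α and IL-1β, the products of Il1a and Il1b, are inflammatory cytokines that bind IL-1 receptor type I (Il1r1), which then recruits the accessory protein encoded by Il1rap and signals through MyD88 and IRAK kinases to NF-κB. The pathway is held back by IL-1Ra (Il1rn), which occupies the receptor without signalling, and by the decoy receptor Il1r2, which binds IL-1 but has no signalling domain. IL-36β (Il36b) and its antagonist (Il36rn) are made mainly by squamous epithelia and act on a related receptor that shares Il1rap, as does ST2 (Il1rl1), the receptor of the alarmin IL-33 on mast cells and other immune cells.

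The start sites of the members lie in clusters: in the RefSeq order of genes (GRCr8), Il1a is the neighbour of Il1b on chromosome 3, Il36b and Il36rn are neighbours on the same chromosome with Il1rn close by, and Il1r2, Il1r1 and Il1rl1 lie near one another on chromosome 9. The RefSeq table held a promoter window of 250 bases before to 50 bases after the start for 7 of the 10 members. The windows of 4 members that were called higher in SCC fibroblasts than in normal fibroblasts are printed to show the elements of basal and inflammatory promoters that they hold. Il1a lies at chr3:136989968-136990267, Il1b at chr3:137036532-137036831 and Il1rap, in the first of its RefSeq entries, at chr11:87704293-87704592, all on the minus strand, and Il1rn at chr3:27520072-27520371 on the plus strand. Capitals mark TATAAA on either strand, TGANTCA (the AP-1 element) and the κB consensus, which were searched on both strands.
Il1a: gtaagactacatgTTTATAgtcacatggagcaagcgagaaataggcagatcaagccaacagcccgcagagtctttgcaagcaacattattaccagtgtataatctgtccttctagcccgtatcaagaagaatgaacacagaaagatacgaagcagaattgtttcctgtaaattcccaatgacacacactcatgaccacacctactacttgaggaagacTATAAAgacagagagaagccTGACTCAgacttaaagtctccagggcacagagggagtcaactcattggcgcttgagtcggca
Il1b: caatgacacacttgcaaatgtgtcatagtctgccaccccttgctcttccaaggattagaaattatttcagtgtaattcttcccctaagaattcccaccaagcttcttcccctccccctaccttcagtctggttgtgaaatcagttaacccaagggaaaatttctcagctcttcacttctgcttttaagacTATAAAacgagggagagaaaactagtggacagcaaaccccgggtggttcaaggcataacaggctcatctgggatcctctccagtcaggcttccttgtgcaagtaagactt
Il1rn: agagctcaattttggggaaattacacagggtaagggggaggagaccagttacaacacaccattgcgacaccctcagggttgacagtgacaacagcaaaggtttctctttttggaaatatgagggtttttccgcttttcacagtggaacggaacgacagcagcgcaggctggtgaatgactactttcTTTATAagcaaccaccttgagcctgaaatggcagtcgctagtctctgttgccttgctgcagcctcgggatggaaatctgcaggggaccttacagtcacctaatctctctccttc
Il1rap: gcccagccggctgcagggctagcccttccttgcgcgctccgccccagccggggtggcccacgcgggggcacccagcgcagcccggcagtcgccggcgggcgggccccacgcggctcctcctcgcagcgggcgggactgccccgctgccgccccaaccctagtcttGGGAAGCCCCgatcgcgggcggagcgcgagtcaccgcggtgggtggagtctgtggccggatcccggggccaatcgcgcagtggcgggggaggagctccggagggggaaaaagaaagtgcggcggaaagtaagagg
Counted from the start site, TATAAA stood at -32 to -27 in Il1a and at -60 to -55 in Il1b, and on the opposite strand at -237 to -232 in Il1a and at -64 to -59 in Il1rn. This word occurred in 14.2% of the 33469 rat promoter windows. Il1a also held TGANTCA at -12 to -6, a word found in 7.33% of windows, and the κB consensus was matched in Il1rap on the opposite strand at -85 to -76, beside 6.15% of all windows that held it. Windows not printed held such words too: Il1r1 the κB consensus at -135 to -126 and Il1rl1 TATAAA at -246 to -241, both on the opposite strand. Neither gene was called in SCC against normal fibroblasts. These are matches of letters, and none of the arrays measured binding.

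In fibroblasts every called member was higher in SCC. In SCC against normal fibroblasts, 6 of the 10 members were called higher and 0 lower (Il1a, Il1b, Il1rn, Il1r2, Il1rap and Irak2), where 7.82% of all probe sets were called higher and 7.43% lower. Between SCC and dysplasia 5 members were called higher and 0 lower, against 1.52% and 0.322% of all probe sets. The median change of the members was 1.67 for SCC against normal and 1.50 for SCC against dysplasia, beside medians over all genes of 0.02 and 0.01. Dysplasia against normal fibroblasts gave 0 called members, in a comparison where limma called 0.116% of probe sets higher and 0.0548% lower. There 5 members had an unadjusted p under 0.05. The methods' t-test called 0 members after adjustment, where it called 0 of all probe sets too. At an unadjusted p under 0.05 with a fold of at least 2 it called 3 members, beside 456 of all probe sets.

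In epithelia the members split. Il1b, Il1r1 and Il1rl1 were called higher in SCC than in normal epithelia, whereas Il36b, Il36rn and Irak2 were called lower, so that 3 members were higher and 3 lower beside 12.6% and 17.3% of all probe sets. In dysplasia against normal epithelia 0 members were called higher and 4 lower (Il36b, Il36rn, Il1r2 and Irak2), beside 7.0% and 7.54% of probe sets. SCC against dysplasia epithelia gave 0 called members by limma, beside 0.0129% of probe sets called higher and 0.0129% lower, with 5 members at an unadjusted p under 0.05. The methods' t-test called 0 of them after adjustment, where it called 0 of all probe sets too. At its fold of at least 2 it called 1 of them, beside 219 of all probe sets. The members' median change in epithelia was -0.19, 0.05 and 0.49 for dysplasia against normal, SCC against normal and SCC against dysplasia. The p-values measure the spread between 3 pooled samples, which may be technical in part.

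**Figure D1:**
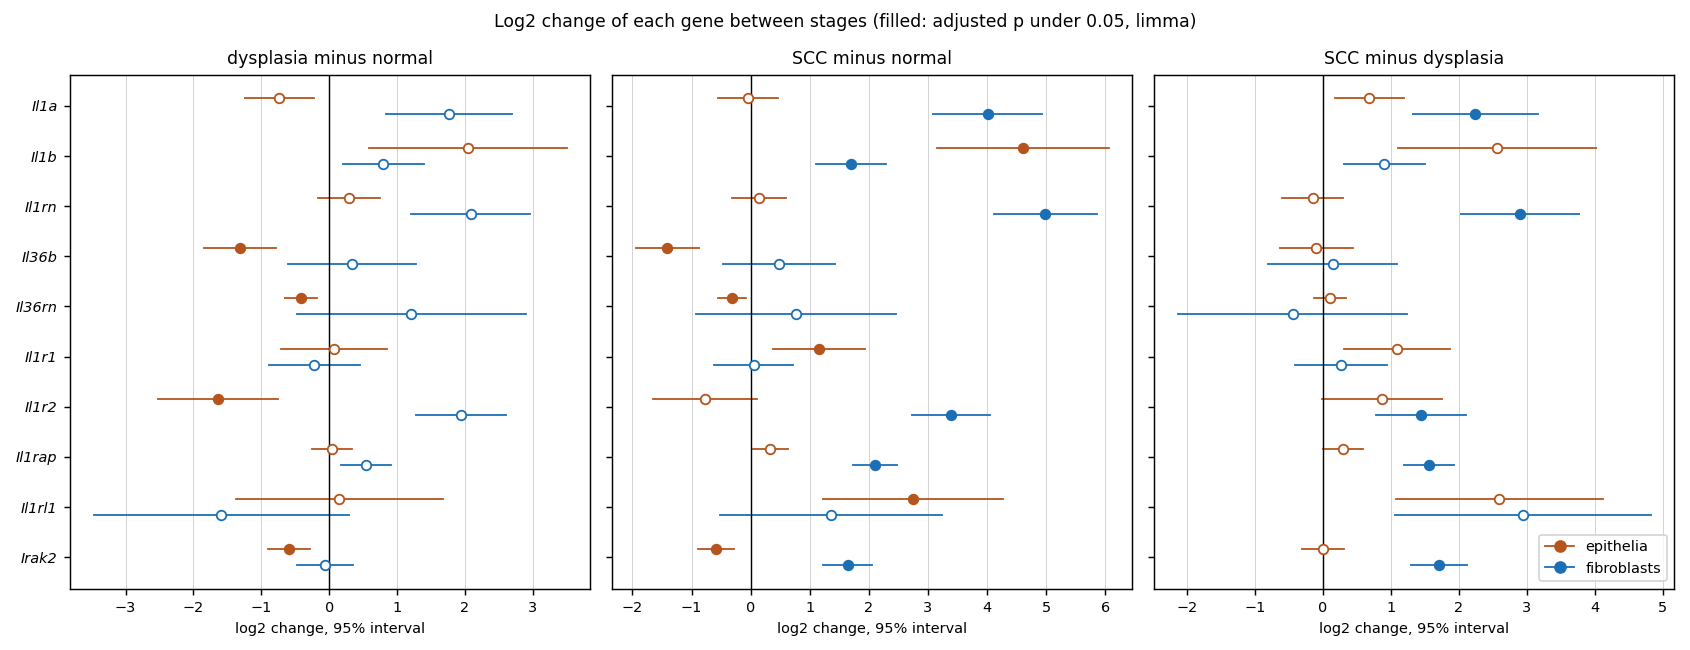
Log2 change of each member (rows) with its 95% confidence interval, for dysplasia minus normal, SCC minus normal and SCC minus dysplasia, in epithelia (orange, upper mark) and fibroblasts (blue, lower mark). Filled marks have an adjusted p under 0.05: 6 members in fibroblasts for SCC minus normal, all to the right of 0, and 3 to each side of 0 in epithelia.

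The arrays of a group correlated at 0.961 to 0.995. The third fibroblast sample of each stage stood apart from the other two: the mean log2 signal of 17 markers of macrophages and monocytes was 8.82 in the third normal sample and 11.49 and 11.14 in the others, 10.53 in the third dysplasia sample and 8.67 and 8.57 in the others, and 11.52 in the third SCC sample and 9.95 and 9.97 in the others. The third samples were also lower in 15 epithelial markers, at 10.40, 11.52 and 11.27, against 11.91 to 12.21 in the other fibroblast samples. Epithelial markers reached 12.85 to 13.06 in epithelia, and the keratin gene Krt5 averaged 13.30, 13.48 and 13.44 in normal, dysplasia and SCC epithelia and 13.15, 13.58 and 13.62 in the fibroblasts of the same stages. Other epithelial markers were lower in fibroblasts. Of the 15, 13 were called higher in normal epithelia than in normal fibroblasts, beside 35.7% of all probe sets. In dysplasia and SCC only 5 and 6 were called higher in epithelia, beside 27.4% and 18.1%. Col1a1, a collagen gene of fibroblasts, averaged 7.04, 7.33 and 10.60 in the 3 stages of epithelia and 13.03, 12.22 and 12.46 in those of fibroblasts. In such bulk samples, fewer cells of a type and less RNA per cell cannot be told apart.

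Il1b was the member with the widest range, lowest in normal epithelia and close to the top of the scale in SCC fibroblasts. The 3 samples of normal epithelia had 5.38, 5.73 and 5.35, those of dysplasia 9.16, 6.33 and 7.11, and those of SCC 10.41, 10.61 and 9.25. The fibroblast samples had 12.38, 12.20 and 11.22 in normal mucosa, 12.69, 12.67 and 12.83 in dysplasia and 13.59, 13.65 and 13.66 in SCC. No group overlapped its neighbour: the order ran from SCC through dysplasia to normal fibroblasts, and on from SCC through dysplasia to normal epithelia. In SCC epithelia Il1b averaged 10.09 ± 0.74, against 5.49 ± 0.21 in normal epithelia (SD, n = 3 each), 24.4-fold higher (log2 change 4.61, SE 0.64, adjusted p = 0.00140). The change between dysplasia and normal epithelia was 2.04 (SE 0.64, adjusted p = 0.0639), and that between SCC and dysplasia epithelia 2.56 (SE 0.64, adjusted p = 0.171). In SCC fibroblasts the mean was 13.63 ± 0.04, against 11.94 ± 0.62 in normal fibroblasts (SD, n = 3 each), a change of 1.70 (SE 0.26, adjusted p = 0.00696). Il1b was thus already high in the fibroblast samples of normal mucosa. The 17 macrophage and monocyte markers averaged 8.82 to 11.49 in these samples, against 6.15 to 6.18 in normal epithelia. The part of such cells in this level of Il1b was not tested. The highest signal on each array was 14.14 to 14.39, which leaves little room above the SCC fibroblast values. Against dysplasia fibroblasts the change was 0.91 (SE 0.26, adjusted p = 0.131), and without the third normal sample, which enters the shared estimate of the spread, the adjusted p was 0.00574. Without the second dysplasia sample the change of epithelia from normal to dysplasia was 2.65 (adjusted p = 0.0341).

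Il1a is the other IL-1 agonist. Its level in epithelia was 9.01, 8.42 and 8.89 in normal mucosa, 8.18, 8.11 and 7.82 in dysplasia and 9.15, 8.38 and 8.63 in SCC. In fibroblasts it was 8.65, 8.34 and 7.25 in normal mucosa, 9.52, 9.45 and 10.57 in dysplasia and 11.92, 11.86 and 12.50 in SCC. The 3 stages of fibroblasts did not overlap, and the SCC epithelia overlapped the normal epithelia. Il1a averaged 12.09 ± 0.36 in SCC fibroblasts, against 8.08 ± 0.73 in normal fibroblasts (SD, n = 3 each), 16.2-fold higher (log2 change 4.01, SE 0.41, adjusted p = 0.00121). SCC exceeded dysplasia fibroblasts by 2.25 (SE 0.41, adjusted p = 0.0313). This call was lost with the replicate number as a block (adjusted p = 0.0546) and with any of 6 samples left out (the second normal, the first or second dysplasia, or any SCC sample, adjusted p 0.0579 to 0.133). The second probe set of Il1a gave larger changes in fibroblasts, 5.71 (SE 0.37, adjusted p = 1.57e-04) for SCC against normal and 3.32 (SE 0.37, adjusted p = 0.00434) for SCC against dysplasia. Dysplasia fibroblasts lay between the other stages. They exceeded normal fibroblasts by 1.77 (SE 0.41, adjusted p = 0.120), and by 0.99 (adjusted p = 0.00509) without the third sample of every stage. In epithelia the change was -0.74 (SE 0.22, adjusted p = 0.0582) for dysplasia against normal, past the threshold without the first or the second SCC sample (adjusted p = 0.0327 and 0.0445), and -0.05 (SE 0.22, 95% interval -0.56 to 0.46) for SCC against normal.

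Il1rn, the antagonist, was low in normal fibroblasts and high in SCC fibroblasts, and lay between these levels in epithelia. Normal fibroblasts had 6.66, 6.59 and 5.82, dysplasia fibroblasts 8.75, 8.34 and 8.23, and SCC fibroblasts 11.74, 11.86 and 10.42. In epithelia it was 8.17, 8.39 and 8.41 in normal mucosa, 8.83, 8.60 and 8.42 in dysplasia and 8.74, 8.01 and 8.66 in SCC. All SCC fibroblast samples lay above every other sample, and all normal fibroblast samples below. Il1rn averaged 11.34 ± 0.80 in SCC fibroblasts, against 6.36 ± 0.47 in normal fibroblasts (SD, n = 3 each), 31.7-fold higher (log2 change 4.98, SE 0.39, adjusted p = 3.52e-04). SCC exceeded dysplasia fibroblasts by 2.90 (SE 0.39, adjusted p = 0.00844), a call lost without the second dysplasia or the first SCC sample (adjusted p = 0.0533 and 0.0550). Dysplasia exceeded normal fibroblasts by 2.08 (SE 0.39, adjusted p = 0.0847), which passed the threshold without the third dysplasia or the third SCC sample (adjusted p = 0.0456 and 0.0217). In epithelia the 95% interval of the change from normal to SCC was -0.31 to 0.60.

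In SCC fibroblasts both agonists and the antagonist were high together, and markers of neutrophils moved with them. Over 10 neutrophil markers the mean log2 signal was 9.23 to 9.36 in SCC fibroblasts, against 6.75 to 7.33 in normal fibroblasts, with 7.95 to 8.14 in dysplasia, and 8 of the 10 were called higher in SCC than in normal fibroblasts, beside 7.82% of all probe sets. Csf3r, the receptor of the neutrophil growth factor G-CSF, averaged 10.96 in SCC, against 6.99 in normal fibroblasts. Of 12 mast cell markers 4 were called higher, with a mean of 8.53 to 9.06 in SCC and 6.52 to 7.83 in normal fibroblasts, and 0 of 17 macrophage markers were called (9.95 to 11.52 in SCC and 8.82 to 11.49 in normal fibroblasts). In SCC against dysplasia fibroblasts 3 of the 10 neutrophil and 0 of the 17 macrophage markers were called higher, beside 1.52% of all probe sets. The median change there was 1.25 for both lists, beside 0.01 over all genes. The β-actin 3′ minus 5′ log2 signal, a measure of RNA integrity, was 1.20 ± 0.06 in SCC and 1.74 ± 0.26 in normal fibroblasts (SD, n = 3 each). The part of these in the changes of the members in fibroblasts was not tested. In SCC against normal epithelia, 12 of the 17 macrophage markers were called higher and 0 lower. Of the 10 neutrophil markers 3 were called higher and 1 lower, where 12.6% of all probe sets were called higher and 17.3% lower. The means of these lists were 7.14 to 9.42 in SCC and 6.15 to 6.18 in normal epithelia for macrophages, and 7.0 to 8.12 and 5.85 to 6.21 for neutrophils. From normal to SCC epithelia the widest rises in the neutrophil list were those of S100a9 (5.71 to 12.48), S100a8 (8.23 to 12.28) and Lcn2 (5.09 to 8.72). Csf3r and Fcgr3a rose less, Cxcr2 (7.60 and 7.67), Mmp8, Camp and Ncf1 were nearly level, and Np4 was lower (7.22 and 6.31). The part of macrophages and neutrophils in the rise of Il1b in epithelia was not tested.

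**Figure D2:**
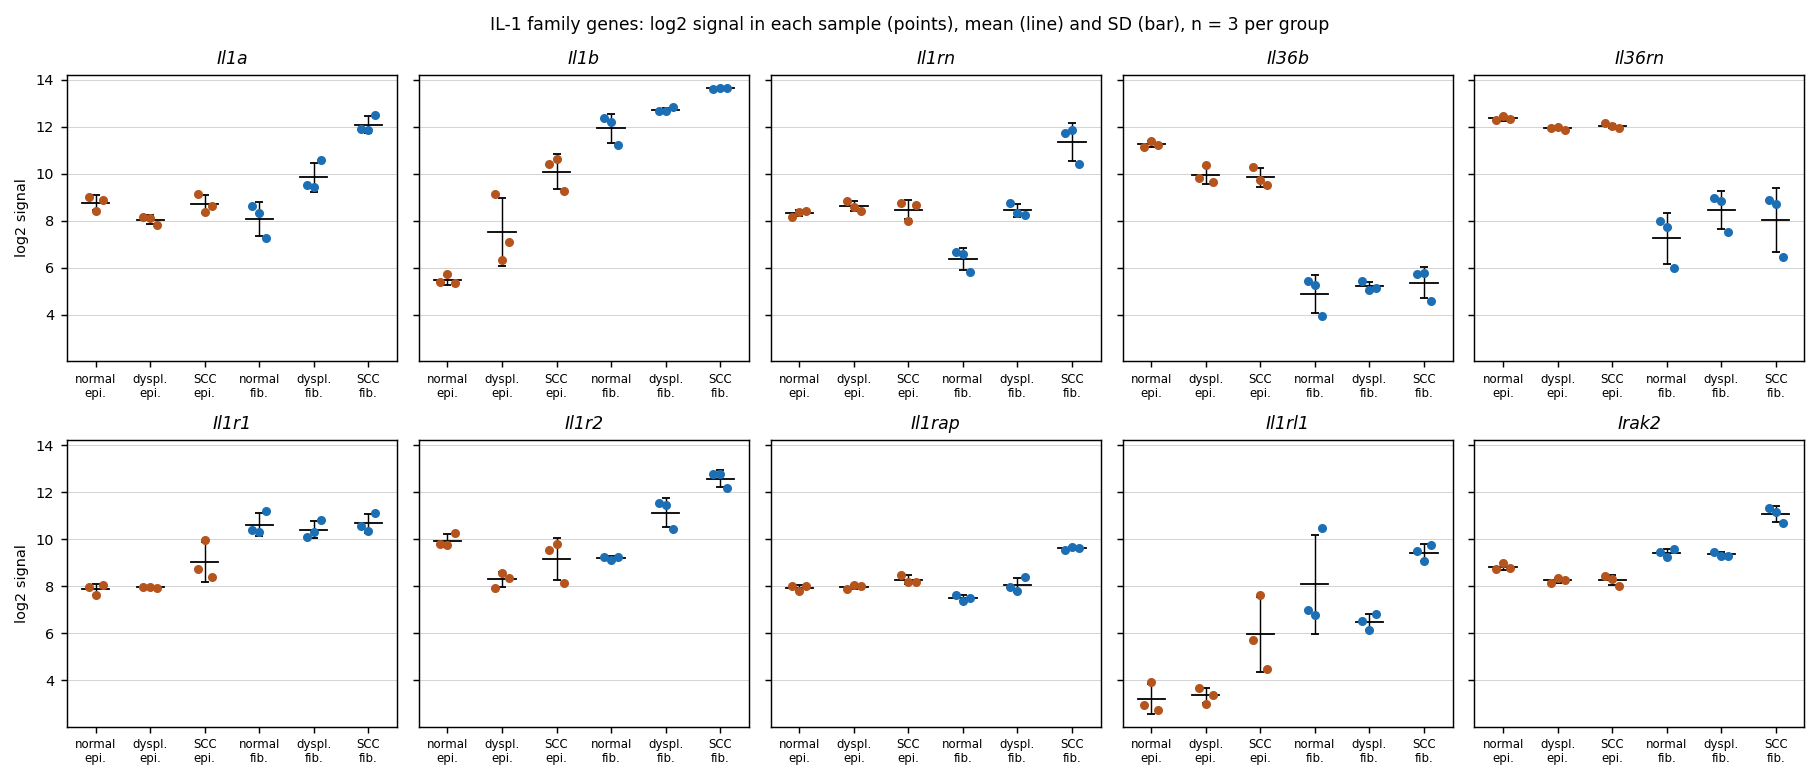
Log2 signal of each member in each of the 18 samples (points), with the group mean (line) and SD (bar, n = 3), for normal, dysplasia and SCC epithelia (orange, left) and fibroblasts (blue, right). In SCC fibroblasts Il1a, Il1b, Il1rn, Il1r2, Il1rap and Irak2 lie above both earlier stages, while Il36b and Il36rn lie higher in epithelia at every stage.

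Il36b and Il36rn, ligand and antagonist of the IL-36 receptor, were epithelial genes here. Il36b was 11.16, 11.41 and 11.21 in normal epithelia, 9.83, 10.36 and 9.64 in dysplasia epithelia and 10.30, 9.74 and 9.52 in SCC epithelia. Fibroblast samples had 3.97 to 5.43 in normal mucosa, 5.07 to 5.43 in dysplasia and 4.60 to 5.78 in SCC. Every lesion sample of epithelia lay below every normal one, and the lesion stages overlapped. Il36b averaged 9.85 ± 0.40 in SCC, against 11.26 ± 0.14 in normal epithelia (SD, n = 3 each), 2.66-fold lower (log2 change -1.41, SE 0.23, adjusted p = 0.00297). Dysplasia gave a change of -1.32 (SE 0.23, adjusted p = 0.00933), and SCC against dysplasia -0.09 (SE 0.23, 95% interval -0.62 to 0.44).

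Il36rn was 12.27, 12.45 and 12.35 in normal epithelia, 11.95, 11.99 and 11.88 in dysplasia and 12.15, 12.03 and 11.95 in SCC. The lesion samples again lay below the normal ones, by a smaller step: the change was -0.42 (SE 0.10, adjusted p = 0.0302) for dysplasia and -0.31 (SE 0.10, adjusted p = 0.0478) for SCC against normal epithelia. Both calls were lost with most single samples left out (any normal or dysplasia sample in either comparison, and the second or the third SCC sample in that of SCC), with adjusted p 0.0580 to 0.131, and in 1 fit of all 18 samples, where the adjusted p was 0.700 and 0.721. In fibroblasts this antagonist was dimmer and the third sample was the lowest at each stage, with 8.01, 7.74 and 6.0 in normal mucosa, 8.98, 8.86 and 7.53 in dysplasia and 8.89, 8.71 and 6.44 in SCC. The changes of 1.21 (SE 0.75) for dysplasia and 0.76 (SE 0.75) for SCC against normal fibroblasts had adjusted p of 0.407 and 0.504. Without the third samples they were 1.04 (adjusted p = 0.00483) and 0.92 (adjusted p = 0.00317). Epithelial markers were also lowest in the third samples, and their part in these changes was not tested.

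Among the receptors, Il1r2, the decoy, was higher in lesion fibroblasts and lower in dysplasia epithelia than in their normal counterparts. In normal, dysplasia and SCC fibroblasts it was 9.24, 9.09 and 9.24, then 11.52, 11.45 and 10.42, then 12.77, 12.79 and 12.18, without overlap between stages. In epithelia it was 9.81, 9.73 and 10.25 in normal mucosa, 7.94, 8.57 and 8.36 in dysplasia and 9.52, 9.81 and 8.14 in SCC. The dysplasia epithelia lay below all normal epithelia, and the SCC epithelia spread across both. Il1r2 averaged 12.58 ± 0.34 in SCC fibroblasts, against 9.19 ± 0.09 in normal fibroblasts (SD, n = 3 each), 10.4-fold higher (log2 change 3.39, SE 0.29, adjusted p = 5.37e-04). Over dysplasia fibroblasts it rose by 1.44 (SE 0.29, adjusted p = 0.0474), a call lost with any of 6 samples left out (the first or second of each stage, adjusted p 0.0741 to 0.200). Dysplasia exceeded normal fibroblasts by 1.94 (SE 0.29, adjusted p = 0.0521), and this passed the threshold without the third dysplasia sample (2.30, adjusted p = 0.00548) or the third SCC sample (adjusted p = 0.0401). In dysplasia epithelia Il1r2 averaged 8.29 ± 0.32, against 9.93 ± 0.28 in normal epithelia (SD, n = 3 each), a change of -1.64 (SE 0.39, adjusted p = 0.0263) that was lost without any 1 of the normal samples or the first or the third dysplasia sample (adjusted p 0.0602 to 0.0827). In SCC epithelia the decoy showed no called change. SCC against normal epithelia gave -0.77 (SE 0.39, adjusted p = 0.163), and SCC against dysplasia epithelia 0.87 (SE 0.39, adjusted p = 0.358), which was 1.38 (adjusted p = 0.0268) without the third SCC sample.

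Il1r1, the signalling receptor, was 10.38, 10.30 and 11.19 in normal fibroblasts, 10.10, 10.30 and 10.80 in dysplasia fibroblasts and 10.57, 10.34 and 11.10 in SCC fibroblasts. These groups overlapped, and the change from normal to SCC was 0.05 (SE 0.30, 95% interval -0.62 to 0.72). In epithelia it was 7.97, 7.61 and 8.04 in normal mucosa, 7.97, 7.94 and 7.91 in dysplasia and 8.73, 9.97 and 8.39 in SCC. The SCC samples were above all others, and the second was the highest. The mean was 9.03 ± 0.83 in SCC, against 7.87 ± 0.23 in normal epithelia (SD, n = 3 each), a change of 1.16 (SE 0.34, adjusted p = 0.0337). Without the second SCC sample it was 0.69 (adjusted p = 0.0198), and the call was lost without any 1 of the normal samples or the third dysplasia sample (adjusted p 0.0516 to 0.106). The other probe sets of Il1r1 did not show it: their changes in SCC against normal epithelia were -0.19 (adjusted p = 0.422) and 0.14 (adjusted p = 0.368), with levels of 5.97 to 7.13 and 3.54 to 5.07 over all 18 samples.

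Il1rl1, the IL-33 receptor ST2, varied more than the other receptors between the samples of normal fibroblasts (SD 2.09) and of SCC epithelia. In dysplasia and SCC fibroblasts its SD of 0.34 and 0.35 was not the widest. Epithelia had 2.94, 3.90 and 2.74 in normal mucosa, 3.66, 3.0 and 3.38 in dysplasia and 5.73, 7.62 and 4.48 in SCC. Fibroblasts had 6.96, 6.77 and 10.48 in normal mucosa, 6.52, 6.12 and 6.80 in dysplasia and 9.48, 9.06 and 9.75 in SCC. The third normal fibroblast sample lay above all SCC samples, while the other two lay below them. The mean in SCC epithelia was 5.94 ± 1.58, against 3.20 ± 0.62 in normal epithelia (SD, n = 3 each), a change of 2.75 (SE 0.67, adjusted p = 0.0158), which was lost without the first or the third normal sample (adjusted p = 0.0514 and 0.0529). The normal epithelial signals are at the dim end of the array, and with signals under 16 set to 16 the change was 1.94 and no longer called (adjusted p = 0.0712). SCC against normal fibroblasts gave a change of 1.36 (SE 0.83, adjusted p = 0.279), and without the third normal sample it was 2.56 (adjusted p = 0.00174). SCC exceeded dysplasia fibroblasts by 2.95 (SE 0.83, adjusted p = 0.121), with an adjusted p of 0.00155 when the third normal sample was left out of the shared spread. The second probe set of Il1rl1 stayed at 5.69 to 6.18 in all 18 samples.

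Connective tissue genes were read in the same SCC epithelia. The first, second and the third SCC epithelia had means of 9.18, 11.23 and 7.26 over 16 fibroblast markers, against 6.16 to 7.78 in normal epithelia, and 3 of the 16 were called higher, beside 12.6% of all probe sets. For 12 mast cell markers the means were 6.43, 7.53 and 4.71, against 4.90 to 5.34 in normal epithelia, with 1 of 12 called, below that share. For 9 endothelial markers they were 7.24, 8.80 and 6.05, against 5.53 to 6.39, with 1 of 9 called, also below it. The second sample was highest in every one of these lists, as it was for Il1r1 and Il1rl1, and their part in both changes was not tested.

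**Figure D3:**
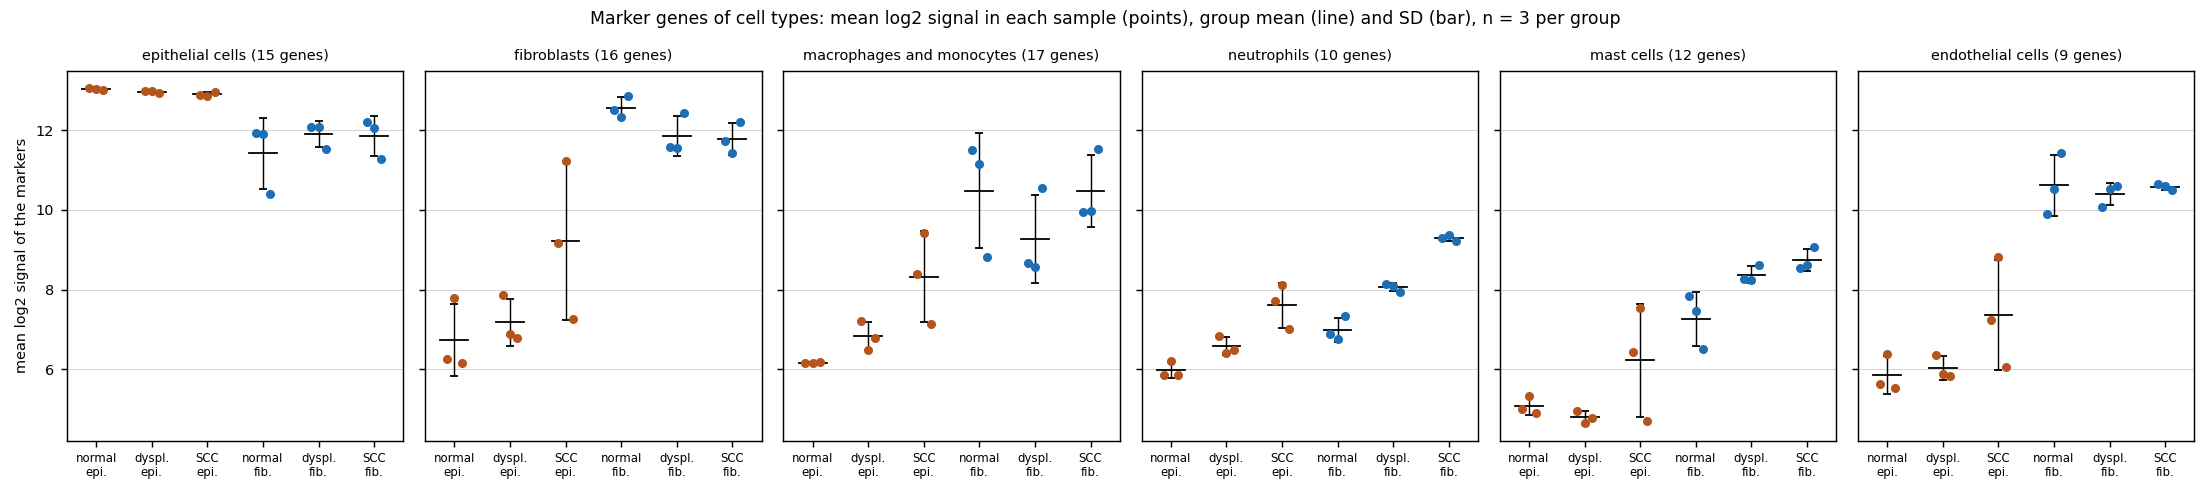
Mean log2 signal of marker genes of 6 cell types in each sample (points), with the group mean (line) and SD (bar, n = 3), for normal, dysplasia and SCC epithelia (orange, left) and fibroblasts (blue, right). Neutrophil markers reach 9.23 to 9.36 in SCC fibroblasts, and the second SCC epithelial sample stands highest of the epithelia in fibroblast, macrophage, neutrophil, mast cell and endothelial markers.

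Il1rap, the accessory protein that the IL-1, IL-33 and IL-36 receptors share, had an SD of 0.06 to 0.30 within groups. It was 7.62, 7.38 and 7.51 in normal fibroblasts, 7.94, 7.81 and 8.38 in dysplasia fibroblasts and 9.54, 9.66 and 9.62 in SCC fibroblasts. The epithelia had 8.01, 7.78 and 8.01 in normal mucosa, 7.88, 8.05 and 7.99 in dysplasia and 8.49, 8.15 and 8.16 in SCC. The SCC fibroblasts lay above every other sample. Il1rap averaged 9.61 ± 0.06 in SCC fibroblasts, against 7.50 ± 0.12 in normal fibroblasts (SD, n = 3 each), 4.30-fold higher (log2 change 2.10, SE 0.16, adjusted p = 3.52e-04), and SCC exceeded dysplasia fibroblasts by 1.56 (SE 0.16, adjusted p = 0.00409). Both calls stood with each single sample left out, but that against dysplasia was lost by the methods' t-test (adjusted p = 0.0694). The second probe set gave 0.80 (SE 0.19, adjusted p = 0.0274) and 0.47 (adjusted p = 0.255) for the same comparisons. In SCC epithelia the change against normal was 0.34 (SE 0.13, adjusted p = 0.0793).

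Irak2, a kinase-like protein that links activated IL-1 and Toll-like receptors to TRAF6, rose in SCC fibroblasts and fell in lesion epithelia. Fibroblasts had 9.46, 9.22 and 9.56 in normal mucosa, 9.47, 9.29 and 9.29 in dysplasia and 11.34, 11.14 and 10.69 in SCC. Epithelia had 8.72, 8.99 and 8.79 in normal mucosa, 8.14, 8.33 and 8.26 in dysplasia and 8.44, 8.29 and 8.02 in SCC. Normal and dysplasia fibroblasts overlapped, and the SCC fibroblasts were above both. The mean was 11.06 ± 0.33 in SCC, against 9.42 ± 0.17 in normal fibroblasts (SD, n = 3 each), 3.12-fold higher (log2 change 1.64, SE 0.18, adjusted p = 0.00182). SCC exceeded dysplasia fibroblasts by 1.71 (SE 0.18, adjusted p = 0.00409). These calls stood with each single sample left out, but both were lost by the methods' t-test (adjusted p = 0.0517 and 0.0748). In epithelia Irak2 changed by -0.58 (SE 0.14, adjusted p = 0.0127) in SCC and by -0.59 (SE 0.14, adjusted p = 0.0237) in dysplasia against normal samples, and the call in dysplasia was lost without any 1 normal sample or the first or the third dysplasia sample (adjusted p 0.0528 to 0.0798).

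**Figure D4:**
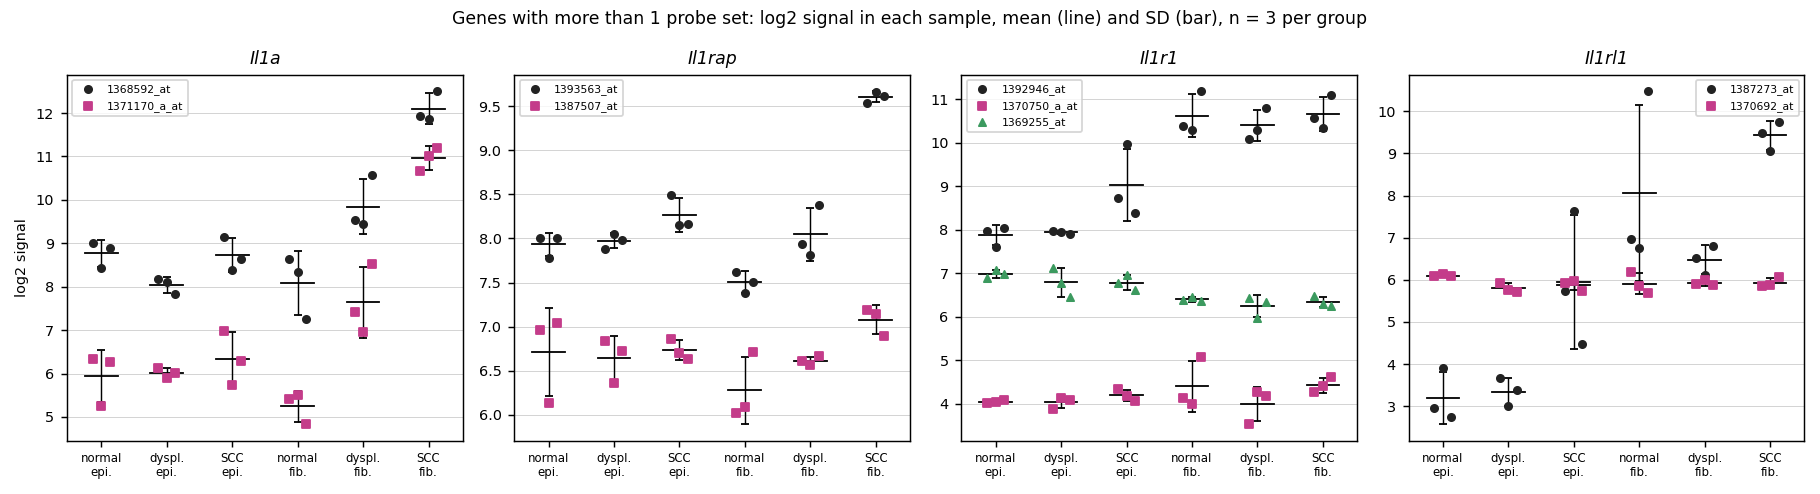
Log2 signal of every probe set (marker shape and colour) of the 4 members with more than 1, in each sample (points), with the group mean (line) and SD (bar, n = 3), for normal, dysplasia and SCC epithelia and fibroblasts from left to right. Both probe sets of Il1a climb through the fibroblast stages, whereas the other probe sets of Il1r1 and Il1rl1 stay within 5.97 to 7.13, 3.54 to 5.07 and 5.69 to 6.18 in all samples.

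Set against fibroblasts of the same stage, epithelia had more of the IL-36 genes and less Il1b. Epithelia and fibroblasts were also prepared in different ways, and the samples held markers of other cells. Cell type, preparation and admixed cells cannot be told apart in any difference between them. In normal mucosa 4 members were called higher in epithelia (Il1rn, Il36b, Il36rn and Il1rap) and 4 lower (Il1b, Il1r1, Il1rl1 and Irak2), beside 35.7% and 27.7% of all probe sets. In dysplasia 2 were higher and 6 lower, beside 27.4% and 23.0%, and in SCC 2 were higher and 8 lower, beside 18.1% and 20.1%. The members higher in epithelia in the lesions were Il36b and Il36rn. Il36b was higher in normal epithelia than in normal fibroblasts by 6.38 (SE 0.36, adjusted p = 2.56e-09), and its differences in dysplasia and SCC were 4.72 and 4.48. The fibroblast signals of Il36b are dim and were not shown to be above background, so the size of these differences is uncertain. For Il36rn they were 5.11, 3.48 and 4.03 in the 3 stages. Il1b differed by -6.45 in normal mucosa (SE 0.53, adjusted p = 7.66e-08), -5.20 in dysplasia and -3.54 in SCC. The Il1r1 differences were -2.75, -2.46 and -1.64, all called, but its second probe set gave 0.58, 0.54 and 0.45, also called, so that the direction between cell types depended on the probe set. Il1rl1 differed by -4.87, -3.13 and -3.48 and was called at each stage. Its second probe set was called at none, with 0.19 (adjusted p = 0.192) in normal mucosa, -0.13 (adjusted p = 0.422) in dysplasia and -0.05 (adjusted p = 0.786) in SCC.

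Il1a and Il1r2 did not pass the threshold between the normal cell types, with epithelia minus fibroblasts at 0.69 (SE 0.35, adjusted p = 0.0976) and 0.74 (SE 0.37, adjusted p = 0.0922), and were lower in epithelia than in fibroblasts in dysplasia (-1.81 and -2.85) and in SCC (-3.37 and -3.42). With the arrays aligned on the spike-in controls both passed in normal mucosa (1.55, adjusted p = 1.56e-04, and 1.59, adjusted p = 5.53e-04), and so did Il1rn in dysplasia (1.30, adjusted p = 0.00142). Each of Il1a and Il1r2 also passed with 1 sample left out, Il1a without the first normal fibroblast sample (0.98, adjusted p = 0.0354) and Il1r2 without the third SCC epithelial sample (adjusted p = 0.0272). Il1rn was higher in epithelia in normal mucosa (1.96, SE 0.33, adjusted p = 9.34e-05), differed by 0.18 (SE 0.33, adjusted p = 0.677) in dysplasia and was lower in epithelia in SCC (-2.88, SE 0.33, adjusted p = 9.40e-06). Il1rap followed the same course with 0.43 (adjusted p = 0.0177), -0.07 (adjusted p = 0.700) and -1.34 (adjusted p = 5.95e-06), and its call in normal mucosa was lost without the first or the third normal epithelial or the second normal fibroblast sample (adjusted p 0.0579 to 0.0687). The second probe set of Il1rap was not called in normal mucosa (0.43, adjusted p = 0.103) or in SCC (-0.34, adjusted p = 0.245). Irak2 was lower in epithelia at every stage (-0.58, -1.11 and -2.81), and its sign in normal mucosa (0.27, adjusted p = 0.323) and dysplasia (0.02, adjusted p = 0.955), like that of Il1rap in dysplasia (1.05, adjusted p = 4.84e-04), turned when the arrays were aligned on the spike-in controls.

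Whether a change between stages differed between the cell types was tested as the change in epithelia minus that in fibroblasts. For SCC against normal 7 members differed, 1 with the larger change in epithelia and 6 with the larger in fibroblasts or with opposite signs, beside 7.12% and 9.39% of all probe sets called in the 2 directions. Il1b was the one whose measured change was larger in epithelia, by 2.91 (SE 0.75, adjusted p = 0.0164), but normal fibroblasts were already at 11.94 with array maxima of 14.14 to 14.39, so a rise as large as that in epithelia could not have been measured in fibroblasts. The differences of Il1rn (-4.84, adjusted p = 2.88e-05), Il1r2 (-4.16, adjusted p = 1.78e-04) and Il1a (-4.07, adjusted p = 1.52e-04) were the widest, followed by Irak2 (-2.23), Il36b (-1.89) and Il1rap (-1.77). For dysplasia against normal 3 members differed (Il1a, Il1rn and Il1r2), all with the lower value in epithelia, beside 2.20% of probe sets called in this direction and 1.93% in the other. For SCC against dysplasia 3 members differed (Il1rn, Il1rap and Irak2), beside 0.612% called in this direction and 0.0387% in the other. Il1r1, Il1rl1 and Il36rn did not pass in any of the 3 tests, with adjusted p of 0.131, 0.441 and 0.391 for SCC against normal. The call of Il1rn for dysplasia against normal was lost without any 1 normal or dysplasia epithelial sample, or without the second or the third normal or the first or second dysplasia fibroblast sample (adjusted p 0.0543 to 0.111), and that of Il36b without the first or second SCC fibroblast sample (adjusted p = 0.0598 and 0.0623). With a replicate block, Il1rn (adjusted p = 0.0759) and Il1rap (adjusted p = 0.0841) lost the call for SCC against dysplasia, and Il1a (adjusted p = 0.0548) and Il1rn (adjusted p = 0.102) that for dysplasia against normal. The second probe set of Il1rap was not called for SCC against normal (-0.78, adjusted p = 0.106) or SCC against dysplasia (-0.37, adjusted p = 0.666). The comparisons of stages share their normal and dysplasia samples.

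Of 31 measured genes that IL-1 is known to induce, 20 were called higher and 1 lower in SCC than in normal epithelia, beside 12.6% and 17.3% of all probe sets, with a median change of 1.70 over the list and -0.03 over all genes, and in dysplasia against normal epithelia 7 were higher and 0 lower, beside 7.0% and 7.54%. The leading targets were the chemokines Ccl2 (4.15 in dysplasia and 5.81 in SCC, SE 0.34) and Ccl20 (2.56 and 3.25, SE 0.22), the collagenase Mmp13 (1.75 and 5.27, SE 0.30) and the adhesion molecule Icam1 (1.39 and 2.02, SE 0.14), as changes against normal epithelia. SCC against dysplasia epithelia gave 2 calls, Mmp13 (3.52, adjusted p = 0.0251) and the gelatinase Mmp9 (2.16, adjusted p = 0.0440). In SCC fibroblasts 14 of the 31 were called higher than in normal fibroblasts and 0 lower (median 0.85), beside 7.82% and 7.43% of all probe sets, among them the acute-phase gene Saa3 (6.76, SE 0.58), the neutrophil chemokine Cxcl3 (3.16, SE 0.28), the apoptosis inhibitor Birc3 (1.35, SE 0.12) and the mitochondrial superoxide dismutase Sod2 (1.14, SE 0.11). Against dysplasia fibroblasts 7 were higher, beside 1.52% of all probe sets, with Birc3, Sod2, Cxcl3 and the RNase gene Zc3h12a leading, and dysplasia against normal fibroblasts gave 1 call beside 0.116%, Saa3 (4.99, SE 0.58, adjusted p = 0.0165). Other cytokines induce many of these genes too. The means of the macrophage and neutrophil markers given above were higher in the same SCC epithelia. Of the 10 neutrophil markers 3 were called higher there and 1 lower. In SCC against normal fibroblasts the mean of the neutrophil markers was higher, whereas 0 of 17 macrophage markers were called. Against dysplasia fibroblasts 3 of 10 neutrophil and 0 of 17 macrophage markers were called higher, with a median change of 1.25 for both lists. The part of these cells in the counts was not tested.

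Of 38 measured genes that act below the receptor, 5 were called higher and 8 lower in SCC than in normal epithelia, shares near the 12.6% and 17.3% of all probe sets. In dysplasia 1 was higher and 6 lower than in normal epithelia, beside 7.0% and 7.54%. The NF-κB subunit gene Nfkb2 (1.15, SE 0.12) and the transcription factor Cebpd (2.49, SE 0.42) were higher in SCC epithelia, whereas Traf6 (-0.87, SE 0.11), the ubiquitin ligase downstream of the IRAKs, and Peli1 (-1.05, SE 0.15), which modifies IRAK proteins, were lower. In dysplasia epithelia Traf6 and Peli1 changed by -0.52 and -0.88, the kinase gene Map3k8 by -1.32 (SE 0.23) and Tnip1 by -0.55 (SE 0.10). In SCC against normal fibroblasts 5 were higher and 2 lower, beside 7.82% and 7.43% of all probe sets, led by Nfkb2 (1.48, SE 0.14) and the NF-κB regulators Tnip1 (1.30, SE 0.21), Bcl3 (0.89, SE 0.19) and Nfkbib (0.56, SE 0.11), and these 4 were also the ones called higher than in dysplasia fibroblasts. The medians of the list were -0.07 and 0.05 in SCC epithelia and fibroblasts, near those of all genes.

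Among 11 genes of cytokine maturation and release, 4 were called higher and 3 lower in SCC than in normal epithelia, beside 12.6% and 17.3% of all probe sets. Casp8 rose there (1.59, SE 0.19) and so did the calpain gene Capn2 (0.67, SE 0.15), while Pycard, the inflammasome adaptor ASC, changed by -2.18 (SE 0.29) and Card9 by -0.79 (SE 0.11). Dysplasia epithelia showed 1 higher and 1 lower, near the 7.0% and 7.54% of all probe sets, Casp8 (0.86, SE 0.19) and Pycard (-1.34, SE 0.29). In SCC fibroblasts 2 of the 11 were called higher than in normal fibroblasts, beside 7.82% of all probe sets, Mefv, the gene of the inflammasome protein pyrin (3.69, SE 0.24, adjusted p = 1.57e-04), and Casp8 (1.13, SE 0.14, adjusted p = 0.00299), and Mefv was higher than in dysplasia fibroblasts too (2.17, SE 0.24, adjusted p = 0.00434). Of 5 other genes of the family (Il18, Il18bp, Il33, Il1rl2 and Sigirr), 0 were called by limma between stages in either cell type.

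The genes whose pattern over the 18 samples was most like that of a member were found by the mean absolute difference of log2 signals after subtraction of each gene's own mean. For Il1b, whose own mean absolute deviation was 2.59, they were the chemokine genes Ccl3 (0.328) and Cxcl2 (0.362), then Slfn4 (0.388) and the stromelysin gene Mmp3 (0.570). Il1r2, with a deviation of 1.23, was followed most closely by Chi3l1 (0.322), F2rl2 (0.498), the neutrophil granule gene Camp (0.508) and Ripor2 (0.559). The nearest to Il1rn, at a deviation of 0.986, were the keratin gene Krt19 (0.512), LOC102555751 (0.517), Prok2 (0.572) and Ampd3 (0.623). These are descriptions over samples that share stages and cell types.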

How the data were processed

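RNA of 18 pooled samples, 3 in each of 6 groups, was measured on 1 array each. The deposited values are linear probe set intensities that go down to 1 on each array. RMA and Affymetrix Expression Console stand in the submitters' notes on processing, with versions and settings not given in the sources used here. Background correction and summarisation before deposit can compress low signals and small changes. The intensities were taken to log2 as deposited, with no further normalization. The median signal of an array was 92.2 to 109.3 in epithelia and 110.3 to 115.8 in fibroblasts, so the arrays did not share 1 median. The files hold 31099 probe sets, and without the 57 controls 31042 entered the tests: 20826 carried 1 gene symbol in the platform annotation, 436 several and 9780 none.

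Stages were compared within each cell type by limma 3.58.1 in R 4.3.3 (lmFit and eBayes on 9 samples), and cell types and differences of a change in 1 fit of all 18. The Benjamini-Hochberg adjustment ran over these 31042 probe sets together, with a threshold of 0.05. The number of arrays limits the precision. All 10 members are named. Up to 4 called genes per pathway list and comparison are named by smallest adjusted p, and 4 genes by likeness of pattern to Il1b, Il1rn and Il1r2. Members, lists and tests were chosen with earlier results of these data known. The groups share replicate numbers in the labels, with no statement that a number marks a shared animal, batch or day. Deviations of same-numbered samples from their group means correlated above 0.1 in every pair only for SCC and dysplasia fibroblasts (0.321 to 0.592, against -0.527 to 0.352 between different numbers). The tests were tried on simulated data first. Alternatives were other scalings, filters, floors and variance models, the methods' t-test, a replicate block, other probe sets and the omission of samples. Promoter sequences are RefSeq's, of build GRCr8.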

Additional observations from a re-analysis of the deposited data

Results flagged for a closer look

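The change between stages differed between epithelia and fibroblasts for 7 members in SCC against normal mucosa, as tested by limma on the change in epithelia minus that in fibroblasts. The difference was 2.91 for Il1b (SE 0.75, adjusted p = 0.0164), the member with the larger measured rise in epithelia, though SCC fibroblasts averaged 13.63 with array maxima of 14.14 to 14.39, so that as large a rise could not have been measured in fibroblasts. It was -4.84 for Il1rn (SE 0.46, adjusted p = 2.88e-05), -4.16 for Il1r2 (SE 0.52, adjusted p = 1.78e-04) and -4.07 for Il1a (SE 0.50, adjusted p = 1.52e-04). Irak2 gave -2.23 (SE 0.23, adjusted p = 4.13e-05), Il36b -1.89 (SE 0.51, adjusted p = 0.0215) and Il1rap -1.77 (SE 0.21, adjusted p = 9.97e-05). The second probe set of Il1rap gave -0.78 (adjusted p = 0.106).

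For dysplasia against normal mucosa the changes differed by -3.58 for Il1r2 (SE 0.52, adjusted p = 0.00252), -2.50 for Il1a (SE 0.50, adjusted p = 0.0132) and -1.79 for Il1rn (SE 0.46, adjusted p = 0.0421). For SCC against dysplasia they differed by -3.05 for Il1rn (SE 0.46, adjusted p = 0.00848), -1.70 for Irak2 (SE 0.23, adjusted p = 0.00550) and -1.27 for Il1rap (SE 0.21, adjusted p = 0.0128). The second probe set of Il1rap gave -0.37 (adjusted p = 0.666) there.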

How the results depend on the processing

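Counts of called members depended most on the setting in dysplasia against normal fibroblasts: against 0, there were 2 with arrays aligned on spike-in controls, 3 with a replicate block, 1 with a trended, robust variance, 3 in 1 fit of all 18 samples, 1 when adjusted over 1 probe set per gene, 3 at a fold of at least 2 with unadjusted p (limma or the methods' t-test alike), and 5 without the third fibroblast samples, an omission chosen after seeing the data. SCC against dysplasia fibroblasts gave 3 rather than 5 with signals under 16 set to 16. The adjusted t-test lost all 5 of these calls (adjusted p 0.0694 to 0.226). It called 1 other member, Il1b (adjusted p = 0.0366), which limma did not call. SCC against normal epithelia gave 2 rather than 6 by the adjusted t-test and 3 by its fold rule, which left 2 of 4 in dysplasia against normal epithelia. SCC against dysplasia epithelia gave 3 by limma's fold rule and 1 by that of the t-test. Differences of a change between cell types numbered 5 (spike-in), 1 (block) and 5 (fold rule) rather than 3 for SCC against dysplasia, and 1 (block) and 5 (without the third samples) rather than 3 for dysplasia against normal. With single samples left out the counts ran from 1 to 5 and 3 to 6 in dysplasia and SCC against normal epithelia, 0 to 2 in SCC against dysplasia epithelia, and 0 to 2, 6 to 7 and 2 to 7 in the same 3 comparisons of fibroblasts. Signs turned with the spike-in alignment for epithelia minus fibroblasts of Irak2 (0.27 in normal mucosa, 0.016 in dysplasia) and Il1rap (1.05 in dysplasia). That alignment moved the median of all probe sets by 0.86, 1.12 and 0.31 in normal, dysplasia and SCC, and by 0.61 and 0.72 in SCC fibroblasts against normal and dysplasia. Other probe sets turned Il1r1 (-0.19 in SCC against normal epithelia, then 0.58, 0.54 and 0.45 between cell types by stage, and 0.038 in dysplasia by the third probe set) and Il1rl1 (-0.22 in SCC against normal epithelia, 0.19 between normal cell types). The cause was not tested. Over all probe sets the replicate block gave 1449 calls rather than 53 in dysplasia against normal fibroblasts, where same-numbered samples correlated at 0.0255 to 0.194. Among single members, 2526 values kept both their sign and their side of the threshold, 105 lost a call and 60 gained one. A further 53 were uncalled in both settings with opposite signs, and 10 changed sign with a call in at least one setting.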
